A study of Oryzias melastigma with 12 samples.

Results

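The members are 100 microarray probes whose deposited log2 values were lower at each of 3 concentration steps that could be read within a single slide of marine medaka larvae exposed to hexabromocyclododecane (HBCD). The array carried 26429 custom probes, and 10448 of them were well above background on all 12 arrays, meaning that the scanner software marked over a share of 0.5 of their spots so on each array. Among those 10448 probes, 216 were lower by at least 0.1 (log2) at all 3 steps. The members were chosen by these values alone, as the 100 with the lowest sum of the 3 steps. The files name probes only by the number of a custom design, and 0 probe names matched an identifier among the 28599 genes of the RefSeq table used here. The members are therefore described as probes, and no probe sequence or gene role is given.

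Oryzias melastigma, the marine medaka, is a fish of brackish and salt water that is kept for toxicology. Larvae of up to 24 hours after hatching spent 7 days in seawater with 0.2, 2 or 20 nM HBCD or with the solvent dimethyl sulfoxide (DMSO) alone, and all 4 groups carried DMSO at a dilution of 1 in 30000. There were 3 dishes per group with 100 larvae in each, and RNA was taken from pools of 30 whole larvae, so that an array stood for 1 pool. In such a pool, fewer cells of a type and less RNA per cell cannot be told apart, and because the probes carry no gene names the larval material was not checked against marker genes. The labels give no strain or genotype.

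HBCD is a brominated flame retardant that was widely added to polystyrene foam and that persists and accumulates in aquatic animals. In fish it is known for effects on the thyroid axis, on oxidative stress and on early development. On a one-colour array, labelled RNA binds to a printed spot of short DNA, and the spot's brightness depends on the amount of RNA, on how well that DNA binds and on the local background. A probe can thus be compared between arrays, but its brightness gives no transcript level to set against that of another probe.

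The file headers place the 12 arrays on 3 slides of 4 arrays, each slide with a scan of its own. Slide 1 held the 3 control arrays and 0.2 nM replicate 3. Slide 2 held 0.2 nM replicates 1 and 2 with 2 nM replicates 2 and 3. Slide 3 held 2 nM replicate 1 with the 3 arrays at 20 nM. The first step is the 0.2 nM array minus the mean of the controls on slide 1, the second is the mean of the 2 nM arrays minus the mean of the 0.2 nM arrays on slide 2, and the third is the mean of the 20 nM arrays minus the 2 nM array on slide 3. The first step and the third step thus rest on a single array on one side. All 12 arrays entered the choice of members, so every comparison among them describes the chosen probes, and no array was left over to test them.

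The 3 steps had medians of -0.35, -0.44 and -0.39 over the members in the deposited log2 table, and their sum had a median of -1.22. The sums ran from -7.82 to -0.82. Over all 10448 probes the medians of the same steps were -0.002, -0.0062 and 0.0041. The 216 probes lower by at least 0.1 at all 3 steps were 2.07% of the 10448, and 169 probes (1.62%) were higher by at least 0.1 at all 3. The other 6 sign patterns past 0.1 held between 146 and 461 probes each, so that 3 low steps were neither the most nor the least frequent pattern. A further 43 probes had no rising step and a sum as low as that of the last member, but at least 1 step above -0.1. Probes with a rising step were not counted there.

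In the same table, 1 of the 3 steps made up over 50% of the sum in 60 members. The same comparison held in 96.6% of the 10448 probes. A probe with a rising step always meets it, so this share cannot be set against that of the members. The second step was the most negative in 44 members, the third in 29 and the first in 27. Over all 10448 probes the lowest step was the second in 39.6%, the third in 29.4% and the first in 31%, so this split was near that of all probes. Every step was at most -0.2 in 41 members, at most -0.3 in 22 and at most -0.4 in 10.

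From here on, except where the deposited table is named, values are on a second scale, computed from the scanner files as log2 processed intensity minus the 75th percentile of the array. On that scale the members' sum had a median of -1.27, whose direction the rule had fixed. All 3 steps were at most -0.1 in 98 members and in 240 of the 10448 probes (2.30%).

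CUST_17874_PI414333748 had the lowest sum, -7.74, with 1 array far from the rest. Its values, listed within each group from replicate 1 to replicate 3 as in all that follow, were 0.081, -0.086 and 0.095 in controls 1 to 3, 0.36, 0.10 and -0.25 in the pools given 0.2 nM, 7.19, -0.046 and 0.32 in those given 2 nM, and -0.085, -0.14 and -0.34 in those given 20 nM. The 2 nM replicate 1 array stood above the other 11, which lay between -0.34 and 0.36. The third step was -7.38, while the first was -0.28 and the second -0.088. In intensity units this probe read 53540 on that array and between 260.7 and 567.8 on the others. The probe was printed once, so no second spot on that array bears on the reading.

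The next-lowest sum, -3.12, belonged to CUST_19317_PI414333748, with -2.45, -0.92 and -2.34 in controls 1 to 3, -2.11, -1.97 and -2.56 in the pools given 0.2 nM, 0.16, -2.53 and -2.22 in those given 2 nM, and -0.31, -2.80 and -2.80 in those given 20 nM. Again 2 nM replicate 1 was the highest array, but 20 nM replicate 1 and control 2 stood above the rest of their groups too. The third step of this probe was -2.14, and the 20 nM mean lay -0.064 from the control mean. CUST_1438_PI414333748 had values of -2.63, -2.83 and -2.31 in controls 1 to 3, -2.55, -2.53 and -2.70 in the pools given 0.2 nM, -1.15, -3.10 and -2.76 in those given 2 nM, and -3.11, -2.87 and -3.41 in those given 20 nM. Its highest array was once more 2 nM replicate 1, and the other 11 lay within -3.41 to -2.31. CUST_277_PI414333748 was the fifth by sum, with -0.54, -0.72 and -1.48 in controls 1 to 3, -0.21, -0.29 and -1.31 in the pools given 0.2 nM, -0.17, -1.06 and -1.40 in those given 2 nM, and -1.51, -1.56 and -1.21 in those given 20 nM. All 3 of its 20 nM arrays were below the 2 nM array of their slide and both 2 nM arrays of slide 2 were below both 0.2 nM arrays, while control 3 lay within the range of the 20 nM arrays.

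Several of the members with low sums varied together over the 12 arrays. Among the 4950 pairs of members the median Pearson correlation of the array values was 0.30, and 32 pairs reached at least 0.95. The pairs share the 12 arrays and the choice of members, so these correlations are given as a description. The 32 pairs joined 29 members into 8 groups, of 9, 5, 5, 2, 2, 2, 2 and 2 probes, which were picked after their values were seen. No pair of members had neighbouring numbers in the design.

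One group of 5 held CUST_21723_PI414333748, CUST_18171_PI414333748, CUST_18250_PI414333748, CUST_218_PI414333748 and CUST_28_PI414333748, with pairwise correlations of 0.92 to 0.99. Both 0.2 nM arrays of slide 2 were high, at a median of 0.98 and 0.99 above each probe's own mean. The values of CUST_18171_PI414333748 were 4.45, 5.19 and 4.02 in controls 1 to 3, 5.67, 5.70 and 4.41 in the pools given 0.2 nM, 5.11, 4.08 and 4.21 in those given 2 nM, and 4.69, 3.90 and 4.88 in those given 20 nM. Those of CUST_218_PI414333748 were 4.65, 5.37 and 4.22 in controls 1 to 3, 5.87, 5.91 and 4.60 in the pools given 0.2 nM, 5.22, 4.43 and 4.32 in those given 2 nM, and 4.76, 4.29 and 5.11 in those given 20 nM. Control 2 was the highest of the controls in both probes and 20 nM replicate 2 the lowest at its concentration. CUST_21723_PI414333748, the third by sum, had -1.42, -0.80 and -1.77 in controls 1 to 3, -0.15, -0.25 and -1.55 in the pools given 0.2 nM, -0.38, -1.78 and -1.88 in those given 2 nM, and -0.94, -2.05 and -0.995 in those given 20 nM. In these 3 probes the second step, between -1.64 and -1.51, was the largest, and the 0.2 nM array of slide 1 lay well below the pair on slide 2. The 20 nM mean of each differed from its control mean by between -0.062 and -1.4e-05, and the arrays of both groups overlapped. The 5 probes were each printed once and lay apart on the array, with 1 of 5 in the low corner. The low corner here means the rows numbered up to 266 and the columns numbered up to 42 of the printed grid.

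The other group of 5 held CUST_23682_PI414333748, CUST_22181_PI414333748, CUST_20909_PI414333748, CUST_19354_PI414333748 and CUST_12332_PI414333748, with correlations of 0.88 to 0.96. CUST_23682_PI414333748 had -0.57, -0.60 and -0.43 in controls 1 to 3, -1.29, 0.054 and -1.76 in the pools given 0.2 nM, -0.91, -2.13 and -1.17 in those given 2 nM, and -1.71, -1.33 and -0.89 in those given 20 nM. The 0.2 nM replicate 2 array was its highest and 2 nM replicate 2 its lowest, and all 3 controls were above all 3 arrays at 20 nM. Over the 5 probes the median of 0.2 nM replicate 2 was 1.14 above the probe's mean, whereas 0.2 nM replicate 1, on the same slide, was 0.47 below it. All 5 probes lay in the low corner. The same held for the pair CUST_25242_PI414333748 and CUST_3940_PI414333748, which sat in rows 4 and 1 and columns 33 and 31, and for the pair CUST_20686_PI414333748 and CUST_12449_PI414333748.

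CUST_25242_PI414333748 had the lowest 20 nM mean relative to the controls of all members, at -1.64. Its values were 0.34, 0.45 and 0.062 in controls 1 to 3, -1.38, 1.04 and -0.45 in the pools given 0.2 nM, -0.75, -2.38 and -0.19 in those given 2 nM, and -1.002, -1.98 and -1.08 in those given 20 nM. Controls and 20 nM arrays did not overlap, but the 0.2 nM arrays spanned -1.38 to 1.04, a wider range than that between the control and 20 nM means. CUST_3940_PI414333748 had 0.92, 0.90 and 0.97 in controls 1 to 3, -0.0082, 1.23 and 0.42 in the pools given 0.2 nM, 0.25, -1.16 and 0.31 in those given 2 nM, and -0.29, -0.43 and -0.22 in those given 20 nM. Its controls lay close together and above every 2 nM and 20 nM array. Its highest array, 0.2 nM replicate 2, and 0.2 nM replicate 1 came from the same slide.

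The group of 9 was headed by CUST_1688_PI414333748 and had correlations of 0.84 to 0.98. Its values were -1.95, -1.68 and -2.01 in controls 1 to 3, -2.67, -2.31 and -2.28 in the pools given 0.2 nM, -1.33, -3.41 and -3.10 in those given 2 nM, and -2.06, -2.09 and -1.66 in those given 20 nM. Both 2 nM arrays of slide 2 were the lowest and 2 nM replicate 1, on slide 3, was the highest. Over the 9 probes these arrays stood at medians of -1.07, -0.84 and 0.82 relative to each probe's mean, so that the 3 arrays at 2 nM spanned the range of these medians over all 12 arrays. The 20 nM mean was above the control mean by a median of 0.29, although each step of the group had a negative median, of -0.37, -0.49 and -0.28. CUST_21256_PI414333748, a brighter member of the same group, had 2.14, 2.23 and 2.06 in controls 1 to 3, 0.99, 1.28 and 1.37 in the pools given 0.2 nM, 2.65, 0.77 and 0.95 in those given 2 nM, and 2.47, 2.38 and 2.74 in those given 20 nM. Both 2 nM arrays of slide 2 were again the lowest, and every 20 nM array was above every control. Of the 9, CUST_2025_PI414333748 and CUST_7364_PI414333748 were printed 5 times, and 3 of the 7 printed once lay in the low corner.

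Among the 100 members, 93 were printed once and 7 were printed 5 times, against 80.4% and 19.5% of the 10448 probes. For CUST_2025_PI414333748 the 5 spots of an array differed by a median SD of 0.11, and its array values were -1.48, -1.20 and -1.60 in controls 1 to 3, -2.23, -1.53 and -1.80 in the pools given 0.2 nM, -0.75, -2.50 and -2.23 in those given 2 nM, and -1.19, -1.23 and -1.42 in those given 20 nM. The 2 nM arrays differed from each other by far more than its spots did. CUST_114_PI414333748 had a spot SD of 0.14 and -1.89, -0.90 and -1.93 in controls 1 to 3, -0.74, -0.45 and -1.71 in the pools given 0.2 nM, -1.20, -2.46 and -2.43 in those given 2 nM, and -1.50, -2.08 and -1.03 in those given 20 nM, again with both 0.2 nM arrays of slide 2 on top. CUST_213_PI414333748, CUST_5639_PI414333748 and CUST_7364_PI414333748 had spot SDs of 0.15. In these 5 probes the second step, from -1.85 to -0.49, exceeded the median spot SD. The first steps of CUST_114_PI414333748 (-0.14) and CUST_5639_PI414333748 (-0.17) were near the size of it. So were the third steps of CUST_7364_PI414333748 (-0.165) and CUST_213_PI414333748 (-0.19). On 0.2 nM replicate 3, the single array of the first step, the spot SD of CUST_2025_PI414333748 was 0.33, beside a first step of -0.37. In CUST_213_PI414333748 it was 0.26 there, beside a first step of -0.21. The array values are means over the 5 spots, which vary less than single spots, so a spot SD is not the error of a step. CUST_6192_PI414333748 and CUST_10123_PI414333748 had spots that did not match, with median SDs of 1.30 and 0.55. On CUST_6192_PI414333748 the spot SD was 0.10 to 0.19 on the controls and 1.29 to 1.81 on all arrays of slides 2 and 3 except 0.2 nM replicate 2, where it was 0.087.

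The 5 members whose smallest step in the deposited table was largest in size were CUST_7687_PI414333748, CUST_15285_PI414333748, CUST_25242_PI414333748, CUST_15985_PI414333748 and CUST_3940_PI414333748. CUST_7687_PI414333748 had -2.80, -2.14 and -2.74 in controls 1 to 3, -2.50, -2.45 and -3.24 in the pools given 0.2 nM, -2.41, -2.98 and -3.23 in those given 2 nM, and -3.52, -2.74 and -3.01 in those given 20 nM, and its steps were -0.68, -0.63 and -0.68. All 3 controls were above 0.2 nM replicate 3, but 20 nM replicate 2 lay on the same level as control 3. CUST_15285_PI414333748 had steps of -0.80, -0.61 and -0.74. Its values were -2.07, -2.27 and -2.13 in controls 1 to 3, -2.42, -2.42 and -2.96 in the pools given 0.2 nM, -0.85, -3.03 and -3.03 in those given 2 nM, and -1.39, -1.74 and -1.67 in those given 20 nM. The arrays did not overlap at any of the 3 steps, yet all 3 arrays at 20 nM were above all controls, and the 20 nM mean of -1.60 ± 0.18 (SD, n = 3) stood above the control mean of -2.16 ± 0.10 (SD, n = 3). The gap between the 2 nM array of slide 3 and those of slide 2, 2.18, was as large as the 3 steps together. CUST_15985_PI414333748 and CUST_8886_PI414333748, the eighth and the ninth by sum, each had 1 control well above the other two.

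For CUST_15985_PI414333748 the control values were -2.16, -2.28 and -0.0017, and the 20 nM values were -2.50, -2.10 and -2.004. For CUST_8886_PI414333748 the controls were -1.81, -0.99 and -2.40 and the 20 nM arrays -1.75, -2.96 and -1.74. In both probes the control and 20 nM arrays overlapped.

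The 5 brightest members were CUST_18171_PI414333748 and CUST_218_PI414333748, both described above, with CUST_11196_PI414333748, CUST_18712_PI414333748 and CUST_16341_PI414333748. CUST_11196_PI414333748 was the brightest, with 8.44, 8.36 and 8.46 in controls 1 to 3, 7.98, 7.93 and 8.15 in the pools given 0.2 nM, 8.28, 7.07 and 8.41 in those given 2 nM, and 7.86, 8.02 and 7.73 in those given 20 nM. Its low array was 2 nM replicate 2, and its 20 nM arrays were all below its controls. CUST_18712_PI414333748 had 4.50, 4.62 and 4.80 in controls 1 to 3, 4.10, 4.37 and 4.42 in the pools given 0.2 nM, 4.90, 3.69 and 3.69 in those given 2 nM, and 4.41, 4.75 and 4.90 in those given 20 nM, with both 2 nM arrays of slide 2 lowest and 2 nM replicate 1 highest together with 20 nM replicate 3. CUST_16341_PI414333748 had 4.29, 4.42 and 4.23 in controls 1 to 3, 3.77, 3.22 and 3.63 in the pools given 0.2 nM, 4.07, 2.56 and 4.38 in those given 2 nM, and 3.97, 3.57 and 3.47 in those given 20 nM. Its 2 nM arrays on slide 2 were its lowest and its second-highest, so the second step was -0.025 on this scale.

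Compared by group, with slides set aside, most members were lower at 20 nM than in the controls, but by little. The 20 nM mean was below the control mean in 72 members and above it in 28, against 57.7% and 42.3% of the 10448 probes. The median difference over the members was -0.23, against -0.048 over all 10448 probes, and it ran from -1.64 to 1.66. The 2 nM mean was below the control mean in 84 members and the 0.2 nM mean in 57, against 48.3% and 44.6% of the 10448 probes. Group means that were lower at each higher concentration occurred in 18 members, against 4.65% of the 10448 probes. All 3 arrays at 20 nM lay below all 3 controls in 35 members (21.6% of the 10448 probes did so) and above them in 11 (14.8%). With normexp, another background correction, the 2 nM mean was below the control mean in 27 members and the 0.2 nM mean in 31. The members' median differences were then 0.25 at 2 nM and 0.16 at 0.2 nM, against 0.072 and 0.032 over 11923 probes. At 20 nM, 78 members were below the control mean with normexp, and the median difference was -0.20, against -0.041 over the 11923 probes. The share of all probes below the control mean was not counted with normexp, so these counts of members have no share beside them. These comparisons share the control arrays, and all of these arrays also entered the choice of members.

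In limma's moderated test over all 12 arrays and 11923 probes, with Benjamini-Hochberg adjustment over all of them at 0.05, 1 member was called lower at 20 nM than in the controls, beside 0.461% of all probes tested. It was CUST_2364_PI414333748, with -0.98, -1.10 and -1.57 in controls 1 to 3, -1.34, -1.71 and -1.79 in the pools given 0.2 nM, -1.70, -1.79 and -1.89 in those given 2 nM, and -1.82, -2.44 and -2.23 in those given 20 nM. Its control mean was -1.22 ± 0.31 (SD, n = 3) and its 20 nM mean -2.16 ± 0.31 (SD, n = 3), and the arrays of both groups did not overlap. The difference was -0.95 ± 0.19 (SE), with a limma adjusted p of 0.0307. In the model with slide, described below, this probe was not called. No member was called lower at 2 nM (0 members, 0.302% of all probes tested) or at 0.2 nM (0 members, 0.0% of all probes tested), where limma gave 6 and 1 members at an unadjusted p under 0.05, beside 6.52% and 6.95% of all probes tested. Over the 4 concentrations taken as ordered ranks, 3 members were called falling, beside 0.914% of all probes tested. They were CUST_2364_PI414333748, CUST_3940_PI414333748 and CUST_17020_PI414333748, with slopes of -0.30, -0.45 and -0.26 per rank and limma adjusted p of 0.0175, 0.0473 and 0.0406. CUST_17020_PI414333748, named after its values were seen, had 3.30, 3.30 and 3.43 in controls 1 to 3, 3.08, 3.49 and 2.96 in the pools given 0.2 nM, 2.84, 2.47 and 2.82 in those given 2 nM, and 2.95, 2.78 and 2.16 in those given 20 nM. Its 2 nM and 20 nM arrays were all below its controls, while 0.2 nM replicate 2 was its highest array. The count at 20 nM was 0 without control 1 or 2 or without 20 nM replicate 2 or 3 (0.0414% to 0.225% of all probes tested). It was also 0 with slide as a random block (0.0%), and was 19 with array weights (14.3%). The count at 2 nM was 16 without 2 nM replicate 1 (3.55%). Controls and 20 nM arrays lay on different slides. The count over the ordered ranks was 0 with slide as a random block (0.0%) and 1 with slide as a fixed block (0.00839%). It was 0 without control 1 (0.302%) or 2 (0.0829%). It was 1 without control 3 (0.133%), 0.2 nM replicate 3 (0.441%) or 20 nM replicate 3 (0.309%), and 6 without 0.2 nM replicate 2 (0.901%).

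The member farthest in the other direction was CUST_11781_PI414333748, with -3.28, -2.82 and -3.33 in controls 1 to 3, -2.45, -2.38 and -3.44 in the pools given 0.2 nM, -1.23, -2.63 and -3.26 in those given 2 nM, and -2.11, -0.32 and -2.01 in those given 20 nM. All 3 arrays at 20 nM were above all 3 controls, by 1.66 on average, although its 3 steps within slides were -0.30, -0.53 and -0.26. Its 2 nM array on slide 3 was 1.72 above the 2 nM arrays of slide 2.

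Within slides, where the rule had fixed the direction, the arrays of a step did not overlap in 68 members on slide 1 (28.9% of the 10448 probes had the 0.2 nM array below all controls), in 61 on slide 2 (24.7%) and in 74 on slide 3 (19.2%). At all 3 steps they did not overlap in 23 members and in 105 of the 10448 probes (1.00%). The limma model with a term for each combination of slide and group called 0 members lower at the first step (0.0168% of all probes tested), 0 at the second (0.0168%) and 2 at the third (0.101%). At an unadjusted p under 0.05 there were 8, 34 and 16 members at the first, the second and the third step, beside 1.74%, 7.89% and 2.25% of all probes tested. The 2 members called were CUST_17874_PI414333748 and CUST_1438_PI414333748, each high on the 2 nM array of slide 3. The sum of the 3 steps, which is 20 nM against control with slide in the model, was called in 1 member, CUST_17874_PI414333748, which was also the single probe called among all tested (0.00839%). That count was 2 without 0.2 nM replicate 2 (0.0584% of all probes tested) or 20 nM replicate 1 (0.0167%). It was 3 without 2 nM replicate 3 (0.0996%). The sum could not be fitted without 0.2 nM replicate 3 or 2 nM replicate 1.

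At the same concentration, the members also differed between slides in the direction opposite to the steps, which use the same arrays. The 0.2 nM arrays were higher on slide 2 than on slide 1 in 79 members, against 55.8% of the 10448 probes. The median difference was 0.46 over the members and 0.038 over all 10448 probes. The 2 nM array of slide 3 was higher than those of slide 2 in 91 members, against 37.2%. Here the medians were 0.70 and -0.10. The sum of the 2 differences was above 0 in all 100 members, from 0.16 to 7.53. Its median was 1.15, against -0.052 over all 10448 probes. In 28 members the sum of the 2 differences was as large in size as the sum of the steps or larger. These are the members whose 20 nM mean lay above the control mean, since the 2 sums add up to that difference. Over all 10448 probes, 42.3% had a 20 nM mean above the control mean. The steps and these differences use the same arrays with opposite signs, so that a low step and a high difference between slides are in part the same reading. The 100 probes with the highest sums among those higher at all 3 steps showed the reverse. Their medians were -0.31 and -0.20 for the 2 differences and -0.54 for the sum.

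A few arrays were most often at the ends of the members' range. The highest of the 12 arrays was 0.2 nM replicate 2 in 32 members, 2 nM replicate 1 in 26 and 0.2 nM replicate 1 in 15. The lowest was 2 nM replicate 2 in 32 members and 20 nM replicates 2 and 3 in 14 each. It was 2 nM replicate 3 or 20 nM replicate 1 in 13 members each. Over all 10448 probes the arrays named as highest were so in 14.0%, 5.87% and 11.0%. Those named as lowest were so, in the same order, in 6.26%, 9.70%, 13.2%, 5.93% and 18.6%. In the rule, the controls, 0.2 nM replicates 1 and 2 and 2 nM replicate 1 stand on the high side of a step. On the low side stand 0.2 nM replicate 3, 2 nM replicates 2 and 3 and the 20 nM arrays. The SD of the 3 arrays of a group had a median over the members of 0.15 in controls and of 0.42, 0.50 and 0.25 at 0.2, 2 and 20 nM. Over all 10448 probes these medians were 0.083, 0.14, 0.18 and 0.15. The 0.2 nM and 2 nM groups, whose arrays lay on 2 slides each, thus had the largest spread in the members, and the controls the smallest. The rule sets arrays of the 0.2 nM and 2 nM groups on both its high and its low side. The choice of members thus itself favoured a wide spread in these groups.

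The members were mostly dim. Of the 100, 57 were in the dimmest 25% of the 10448 probes, 13 were above the median and 7 were in the brightest 25%. The median intensity of the members was between 80.6 and 223 units on an array, where all 10448 probes had medians of 360 to 578 and the local background read 32.5 to 38 units. The 100 probes that were higher at all 3 steps, chosen in the same way, were dim as well, with 53 in the dimmest 25% and 3 in the brightest.

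The members also lay unevenly on the array, which the rule had not used. The spots were numbered in 532 rows and 85 columns. Of the members' 128 spots, 66.4% were in rows numbered up to 266 and 68.0% in columns numbered up to 42, against 49.6% and 49.3% of the spots of all 10448 probes. Among probes printed once and no brighter than the median of the 10448, the low corner held 1016 probes, of which 44 (4.33%) were members. The other 3 regions held 13 of 1072 (low rows, high columns), 15 of 1025 (high rows, low columns) and 9 of 1119 (high rows, high columns). The probes that were higher at all 3 steps had 18, 10, 11 and 41 in the same regions, so they were most frequent in the opposite corner.

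The same unevenness was present over all dim probes printed once, members or not. The median sum of the 3 steps was -0.14 in the low corner, -0.065 and -0.064 in its neighbours and 0.019 in the opposite corner. Among the brighter probes printed once it was between 0.059 and 0.090 in all 4 regions. The local background of the low corner minus that of the opposite one was 1.58 units on 0.2 nM replicate 2, 0.90 on 0.2 nM replicate 1 and -1.39 on 2 nM replicate 3. On the other 9 arrays the difference was between -0.54 and 0.79 units, with 0.79 on 20 nM replicate 3 and 0.52 on 20 nM replicate 2. It was -0.087 on 2 nM replicate 1 and -0.086 on 2 nM replicate 2. Set against all spots outside it, the low corner had a higher mean background on 0.2 nM replicate 2 (38.83 against 37.72 units). It was also higher on 20 nM replicates 1, 2 and 3 (33.56 against 33.54, 34.19 against 33.88 and 34.74 against 34.23). It was lower on the remaining arrays, among them 0.2 nM replicate 1 (38.37 against 39.21), 2 nM replicate 1 (32.43 against 34.34) and 2 nM replicate 3 (38.21 against 38.7). The part of spot position and local background in the members' steps was not tested.

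At the limit of the choice, members and non-members differed by little. The last 3 members in the deposited table were CUST_11861_PI414333748, CUST_12414_PI414333748 and CUST_6617_PI414333748, with sums of -0.83, -0.83 and -0.82. The first 3 probes left out were CUST_23941_PI414333748, CUST_1201_PI414333748 and CUST_8530_PI414333748, with sums of -0.82, -0.82 and -0.81. CUST_11861_PI414333748 had -1.74, -1.68 and -1.61 in controls 1 to 3, -1.68, -1.23 and -1.93 in the pools given 0.2 nM, -2.03, -2.18 and -1.62 in those given 2 nM, and -2.22, -2.29 and -2.21 in those given 20 nM, with every 20 nM array below every control. CUST_6617_PI414333748 had -1.85, -1.69 and -1.71 in controls 1 to 3, -1.35, -1.28 and -1.93 in the pools given 0.2 nM, -2.15, -2.02 and -1.71 in those given 2 nM, and -2.48, -2.13 and -2.37 in those given 20 nM and the same separation. CUST_12414_PI414333748 had -0.10, 0.23 and 0.96 in controls 1 to 3, -0.81, -0.93 and 0.26 in the pools given 0.2 nM, 1.05, -1.67 and -0.63 in those given 2 nM, and -0.44, 1.19 and 0.96 in those given 20 nM, with its 20 nM arrays on both sides of its controls.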

How the data were processed

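The authors deposited each array's scanner output as spot intensities on a linear scale. Per the file headers the program was Agilent Feature Extraction 10.7.3.1, with background subtraction (10.7 in the submitters' processing notes). A second deposited table holds the authors' log2 values of the 12 arrays. Its columns had medians near 4.34 and correlated with the log2 scanner values of their own array at r of at least 0.999446 across probes, so its scale and direction follow the scanner values. Its columns share 1 distribution, as after quantile normalization; the tool behind it is not given in the sources used. The members were chosen on that table, and they and the named probes were chosen with earlier results of these data known.

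For all other values, the log2 processed intensity minus the array's 75th percentile was used. The value of a probe was the mean over its spots without outlier spots (507 to 729 per array). Where all spots of a probe were outliers, their mean was kept, so an outlier spot of a probe printed once stayed in. No spot was saturated (0 spots). Tests covered the 11923 probes that were well above background on every array of 1 group or more, with limma 3.58.1 in R 4.3.3, in 1 model over 12 arrays with no block, and in a second model of slide and group combinations. P-values were adjusted by Benjamini-Hochberg over all probes tested, at 0.05. Each replicate was a separate dish per the labels' protocols, so the spread covers dish and array together, and the 3 arrays per group limit the precision. The self-test of the fits was run on simulated data.

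Named probes were the 10 lowest sums, the 5 with the most even steps, the 5 brightest, those called at 20 nM, 3 on each side of the limit and both extremes of 20 nM minus control. The probes called over ordered ranks or at a step, and those of the alike groups and of the probes printed 5 times, were named after their values were seen. Gene lists prepared for the study could not be tested (0 lists), since 0 probes had gene names. Members were not replicates of a condition. Background correction, scaling, the filter, array weights, slide and replicate blocks and left-out arrays were tried as alternatives. The normexp correction was run on the median spot signal and the local background median.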

Additional observations from a re-analysis of the deposited data

How the results depend on the processing

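The counts of called members at 20 nM and over the ordered concentrations moved with many choices, and each rests on few probes. The count at 0.2 nM moved only with array weights. Taking the median of spots moved none of these counts. Members lower at 20 nM (1 as reported) numbered 0 with normexp (0.0% of all probes tested) or with no filter (0.0341%). They also numbered 0 with slide as a random block (0.0%) and 2 with scaling to the median (0.268%). There were 19 with array weights (14.3%) and 21 when the 2 groups compared were fitted alone (3.37%). Members falling over the ordered concentrations (3 as reported) numbered 5 in the deposited table (1.47%) and with quantile normalization (1.48%). They numbered 6 with scaling to the median (0.855%). They numbered 0 with normexp (0.0%), with no filter (0.053%) or with slide as a random block (0.0%). There was 1 with slide as a fixed block (0.00839%), and there were 19 with array weights (7.67%). Members called for the sum of steps with slide in the model (1 as reported) numbered 2 with the percentile of detected probes (0.0168%). They also numbered 2 with no filter (0.223%), with the filter on all 12 arrays (0.0287%) and with array weights (0.0168%). Members lower at 0.2 nM and 2 nM (0 as reported) numbered 14 and 15 with array weights (16.6% and 8.14% of all probes tested), and 1 was lower at 2 nM when those groups were fitted alone (0.686%). In the other direction, array weights gave 8 members higher at 0.2 nM (2006 of 11923 probes), 1 at 20 nM (1282) and 1 over the ordered concentrations (982). Fitting the 2 groups alone gave 3 higher at 20 nM (865 of 11492 probes). Without 0.2 nM replicate 3, 2 were higher at 0.2 nM (250 of 12252). Leaving out 1 array gave 0 members lower at 0.2 nM (0.0% to 1.81% of all probes tested). At 2 nM it gave 0 to 16 (16 without 2 nM replicate 1, beside 3.55%). It gave 0 to 3 at 20 nM (0.0414% to 1.21%) and 0 to 6 over the ordered concentrations (0.0829% to 1.03%). For the sum of steps it gave 1 to 3 (0.00829% to 0.0996%). The last could not be fitted without 0.2 nM replicate 3 or 2 nM replicate 1, each alone on its side of a step. At 20 nM the count was 0 without control 1 or 2 or without 20 nM replicate 2 or 3 (0.0414% to 0.225%). It was 2 without 0.2 nM replicate 3 or 2 nM replicate 1 or 3 (0.54% to 1.21%). It was 3 without 0.2 nM replicate 2 (0.5%) or 2 nM replicate 2 (0.409%). Applying the rule anew kept 37 of the 100 members with normexp, 41 with every step at most -0.2, 67 with scaling to the median and 74 to 90 without 1 array. The rule could not be applied without 0.2 nM replicate 3 or 2 nM replicate 1, so the range without 1 array does not cover them. The cause of these shifts was not tested. With the replicate block the counts were 0 (0.0% of all probes tested), 0 (0.302%) and 1 (0.428%) at 0.2, 2 and 20 nM. They were 2 over the ordered concentrations (0.73%) and 1 for the sum of steps (0.00839%). Same-numbered arrays had deviations from their group means correlated at -0.27 to 0.19, with a median of 0.022. Differently numbered arrays had -0.19 to 0.36, with a median of -0.0097. Slides are mixed in both kinds of pair, so these values cannot decide whether the numbers pair the samples. The median sum of steps, whose sign the rule fixed, was -1.55 to -1.04 over the scales, the spot summary and the left-out arrays, and -1.57 with the replicate block. The members' median intensity was 80.6 to 223 units after background subtraction, and the local background itself read 32.5 to 38. The part of dim signal in the small steps was not tested.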
